A study of Mus musculus with 6 samples.

Results

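Ebf3 nuclei are glycinergic amacrine nuclei of the mouse retina that carry RNA of the transcription factor gene Ebf3 (ENSMUSG00000010476). A barcode was taken as an Ebf3 nucleus if it held at least 500 unique molecular identifiers (UMIs), at most 10% mitochondrial UMIs, at least 1 UMI of the glycine transporter gene Slc6a9, and at least 2 UMIs of Ebf3 and more of Ebf3 than of the gap junction gene Gjd2. It also needed at least 1 UMI of the amacrine genes Tfap2a, Tfap2b, Pax6 or Slc32a1, at most 1 UMI of the GABA synthesis genes Gad1 and Gad2 together, and at most 2 UMIs of the bipolar genes Grm6 and Trpm1 together. The rule found 206 nuclei among 27225 barcodes that passed the limits on UMIs and mitochondrial share. The study asks what WIF1, a secreted protein that binds Wnt ligands, does in the retina in a model of glaucoma. The libraries came from C57BL/6J retina given an AAV2/2 vector for Wif1 overexpression and taken at 2 weeks (68 Ebf3 nuclei of 9905) or at 4 weeks (32 of 9637), and from naïve wild-type retina (106 of 7683), which is called the control. The labels add the abbreviation AVI to both times without expanding it, and they give 2 eyes per group, no age, and no statement on pooling. The design names a pair of vectors that express HA-tagged Wif1 from the CMV promoter, with and without GFP, and does not say which was used. Because the control had no injection, the effects of injection, vector and WIF1 cannot be told apart.

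Amacrine cells are inhibitory interneurons of the inner retina that contact bipolar cells, ganglion cells and one another. The glycinergic types are mostly narrow-field cells that join the ON and OFF layers of the inner plexiform layer, and they take up glycine through the transporter GlyT1, the product of Slc6a9. EBF3 belongs to the early B-cell factor family of helix-loop-helix transcription factors and marks a subset of glycinergic amacrine cells in the mouse. The AII amacrine cell, the interneuron of the rod pathway, is glycinergic as well and couples through connexin 36, the product of Gjd2.

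Each group is 1 library, so differences between libraries were not tested and describe these libraries. Values in threes are those of the 2-week, the 4-week and the control library. Levels are counts-per-million values (CPM) of the UMIs summed over the nuclei, given with 95% exact intervals that cover counting error only, and PCR and droplet effects are not in them. Intervals of ATAC (open chromatin) values take each count as independent. They are too narrow if both ends of a fragment were counted, which was not tested. Ebf3 nuclei had median depths of 2411.5 UMIs at 2 weeks, 3745 at 4 weeks and 4606 in the control, and their UMIs summed to 196667, 131496 and 572773. Their ATAC counts had the opposite order, with medians of 8534.5, 5806.5 and 4591. Libraries shared 142 to 207 barcodes by pair, and 0 of the shared barcodes were Ebf3 nuclei of both libraries. A control nucleus with 52190 UMIs, 9.11% of all UMIs of the control Ebf3 nuclei, stood apart from the next highest at 14894. It held 291 UMIs of the neurofilament gene Nefl, 45 of the glutamate transporter gene Slc17a6 and 23 of the ganglion cell factor gene Pou4f1, beside 19 of Ebf3 and 1 of Slc6a9, and results that rest on it are given without it too. Wif1 itself was at 1 UMI at 2 weeks and 0 at 4 weeks, against 0 in the control, and whether RNA from the vector is counted for this gene is not given in the sources used here.

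The amacrine genes of the label are largely those of the rule, so their levels describe the choice. Ebf3 had a median of 4 UMIs per nucleus at 2 weeks, 5 at 4 weeks and 4 in the control, and Slc6a9 had medians of 3, 4 and 4. Pax6, a pan-amacrine homeodomain factor gene and 1 of the 4 genes of which the rule needs a UMI, was detected in 97.1% of nuclei at 2 weeks, 93.8% at 4 weeks and 94.3% in the control. At the lower edge of the rule, 17, 3 and 19 nuclei held exactly 2 UMIs of Ebf3, while 15, 8 and 13 nuclei held 1 UMI and met every other limit. Chat, the acetylcholine synthesis gene of starburst cells, was at 0 UMIs, for which the exact upper limits on the share of nuclei with a UMI were 5.28%, 10.9% and 3.42%. Ppp1r17 and Neurod6, markers of amacrine types that use neither glycine nor GABA, had 0 and 0 UMIs in both WIF1 libraries, against 5 and 1 in the control. The nuclei are called by their rule.

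The nuclei also resembled each other in genes outside the rule. At least 3 of the genes Cartpt, Esr1, Spink13, Lgr5 and Ebf1 were detected in 193 of 206 Ebf3 nuclei (93.7%), in 2 of 140 nuclei chosen by the same rule with Gjd2 in the place of Ebf3 (1.43%; called AII-like), and in 0 of 93 GABAergic amacrine nuclei with at least 2 UMIs of Gad1 and Gad2 and 0 of Slc6a9. The share was 92.6% at 2 weeks, 96.9% at 4 weeks and 93.4% in the control, although AII-like nuclei were deeper, at medians of 3255, 4773 and 6841 UMIs. At least 1 of the 5 genes was detected in 206 of 206 Ebf3, 129 of 140 AII-like and 28 of 93 GABAergic nuclei. Spink13 stood at 936, 677 and 676 CPM in Ebf3 nuclei and at 578, 680 and 481 in AII-like nuclei. Lgr5 stood at 1383, 1049 and 1014 CPM against 414, 262 and 331. The 5 genes were chosen after the contrasts below had been seen, so the counts are a description. Cartpt, the gene of the neuropeptide precursor CART, was detected in 72.1% of Ebf3 nuclei at 2 weeks, 78.1% at 4 weeks and 79.2% in the control, and with every nucleus thinned to 1000 UMIs in 54.5%, 37.5% and 45.3%. Esr1, the gene of estrogen receptor alpha, was detected in 82.4%, 84.4% and 82.1%.

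Ebf3 nuclei were a smaller share of barcodes in both WIF1 libraries than in the control. They made up 0.687% of passing barcodes at 2 weeks (0.533% to 0.870%) and 0.332% at 4 weeks (0.227% to 0.468%), against 1.38% in the control (1.13% to 1.67%). The share was 0.498 times that of the control at 2 weeks (0.361 to 0.681) and 0.241 times at 4 weeks (0.157 to 0.360), and that at 4 weeks was 0.484 times that at 2 weeks (0.307 to 0.747). AII-like nuclei had ratios of 0.324 and 0.283 and GABAergic nuclei 0.254 and 0.157, so that Ebf3 nuclei were 56.2% of the nuclei of these 3 amacrine gates at 2 weeks (46.9% to 65.2%) and 44.4% at 4 weeks (32.7% to 56.6%), against 43.1% in the control (36.8% to 49.5%).

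The 2-week difference in share depended on how depth was treated. Passing barcodes had median depths of 838 UMIs at 2 weeks, 1256 at 4 weeks and 1779 in the control. With a floor of 1000 UMIs for every barcode, Ebf3 nuclei were 1.59% of 4149 barcodes at 2 weeks and 1.66% of 6378 in the control. The ratio was 0.957 (0.693 to 1.31). The floor left 66 of 68 Ebf3 nuclei at 2 weeks and 106 of 106 in the control. Barcodes in the denominator fell from 9905 to 4149 at 2 weeks and from 7683 to 6378 in the control. At 4 weeks they were 0.482% of 6637 barcodes under that floor, a ratio to control of 0.290 (0.189 to 0.434). With barcodes thinned to 1000 UMIs before the rule, 22 of 4144 barcodes at 2 weeks and 10 of 6341 in the control met it, a ratio of 3.37 (1.53 to 7.96), while 5 of 6623 at 4 weeks gave 0.479 (0.128 to 1.54). The direction at 2 weeks therefore turned with the treatment of depth, and at 4 weeks it stayed below 1 with an interval that held 1 after thinning.

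**Figure D1:**
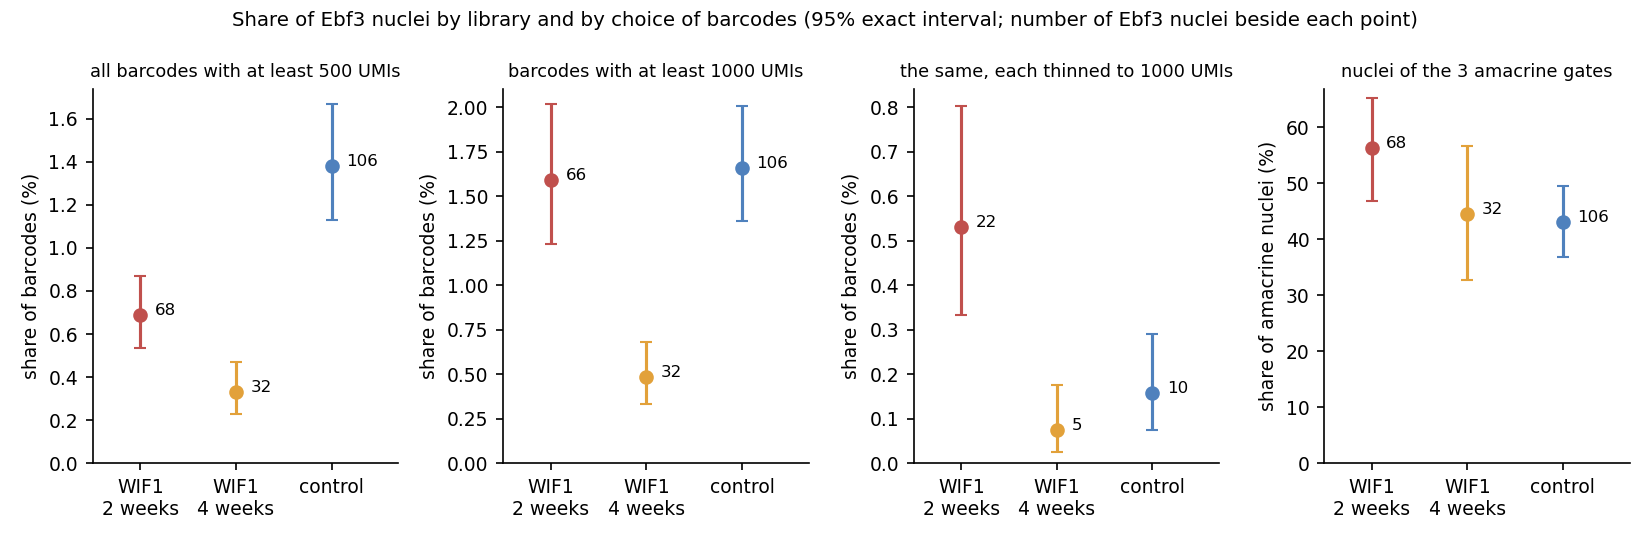
Share of Ebf3 nuclei in percent (y axes) in the WIF1 2-week, WIF1 4-week and control libraries, of all passing barcodes, of barcodes of at least 1000 UMIs, of barcodes thinned to 1000 UMIs, and of the nuclei of the 3 amacrine gates; points are shares and bars 95% exact binomial intervals, with 1 library per group. The 4-week share lies below the control share by passing barcodes (0.332% against 1.38%), and the 2-week share is 0.687% by passing barcodes and 1.59% against 1.66% above the floor.

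Ebf3 nuclei were set against AII-like nuclei to describe what distinguishes them among glycinergic cells. UMIs were summed per library and type and tested with edgeR's quasi-likelihood test with the library as a block. The 3 libraries differ in treatment, and genes of the rule were not read as results. The test moderates the error of each gene with a trend over all genes. Its p-values therefore do not measure the spread over the 3 libraries alone. The SE given is the absolute log2 fold change divided by the square root of the test's F statistic. Of 4139 genes, 565 were higher in Ebf3 nuclei (13.7% of those tested) and 531 lower (12.8%) at an adjusted p under 0.05, and DESeq2 called 501 in both directions together. The highest were led by Alk, a receptor tyrosine kinase gene, the CART gene Cartpt and Sema5a, a semaphorin gene of axon guidance. Nrg1, the gene of the growth factor neuregulin 1, Lingo2 and the dopamine D2 receptor gene Drd2 were among the lowest.

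Cartpt (ENSMUSG00000021647) held 216 UMIs in Ebf3 nuclei at 2 weeks, 89 at 4 weeks and 474 in the control, or 1098, 677 and 828 CPM. In AII-like nuclei it held 0, 0 and 1 UMI, so that the ratio over all libraries was 704 (126 to 27830) on 1 count. Its log2 fold change was 8.95 (SE 0.41, adjusted p = 1.6e-99, edgeR). Alk held 81, 30 and 146 UMIs in Ebf3 nuclei (412, 228 and 255 CPM) and 0 in AII-like nuclei of all 3 libraries, at least 77.4-fold higher against a floor of 3 counts over the group. Nhlh2, a helix-loop-helix factor gene of neurons, held 22, 14 and 79 UMIs against 0, at least 34.6-fold higher, and Sema5a 22, 43 and 90 against 0, at least 46.7-fold higher. These genes were named for large changes with the same direction in all 3 libraries, so their order in each library follows from that choice.

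Genes of transcription factors separated the types further. Of 63 listed factors 27 were tested, 4 of them genes of the rule, and 11 were higher and 4 lower, with a median log2 fold change of 0.51 beside 0.01 over all genes. Ebf1, another member of the family, held 194, 119 and 482 UMIs in Ebf3 nuclei against 0, 0 and 8 in AII-like nuclei (log2 fold change 6.42, SE 0.30, edgeR adjusted p = 7.8e-94). Tfap2c, an AP-2 family gene, held 58, 24 and 135 UMIs against 0, 0 and 1. The nuclear factor I genes divided, as Nfib (4.54, SE 0.28) and Nfix (4.17, SE 0.32) were higher and Nfia (−3.70, SE 0.20) was lower in Ebf3 nuclei, on the log2 scale. Prox1, a homeodomain factor gene known from AII cells, was lower by 0.71 on the log2 scale (SE 0.17, adjusted p = 0.00015, edgeR), at 437, 586 and 424 CPM in Ebf3 nuclei against 776, 727 and 756 in AII-like nuclei.

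Tcf4 was higher in Ebf3 nuclei than in either other amacrine gate. This gene encodes the E-protein TCF4 (E2-2), while the Wnt effector that shares the name is the product of Tcf7l2. Tcf4 stood at 1820, 1681 and 1783 CPM in Ebf3 nuclei at 2 weeks, at 4 weeks and in the control. AII-like nuclei had 922, 727 and 805 CPM, and GABAergic nuclei had 328, 377 and 192 CPM. The log2 fold changes were 1.09 (SE 0.17, adjusted p = 5.2e-10, edgeR) and 2.58 (SE 0.32, adjusted p = 1.9e-05, edgeR). Tcf7l2 held 7, 6 and 5 UMIs in Ebf3 nuclei, in 2 nuclei of each library. Of 60 other Wnt pathway genes, Tcf4 left out, 15 were tested against AII-like nuclei, and 7 were higher and 1 lower, with a median of 0.53. Among them were the receptor genes Ror1 (4.78, SE 0.33) and Lgr5 (1.72, SE 0.17), the Dickkopf family gene Dkk3 (5.92, SE 0.40) and the corepressor gene Tle4 (2.23, SE 0.27), with log2 fold changes. Against GABAergic nuclei, 3 of 14 tested Wnt pathway genes were higher and 0 lower, with a median of −0.08. Ror1 and Lgr5 were among these 3, while Dkk3 and Tle4 were not. Dkk3 stood at 351, 388 and 311 CPM in Ebf3 nuclei and at 533, 393 and 433 in GABAergic nuclei. Dkk3 is also on the Müller glia list, of which 5 of 6 tested members were higher in Ebf3 than in AII-like nuclei.

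**Figure D2:**
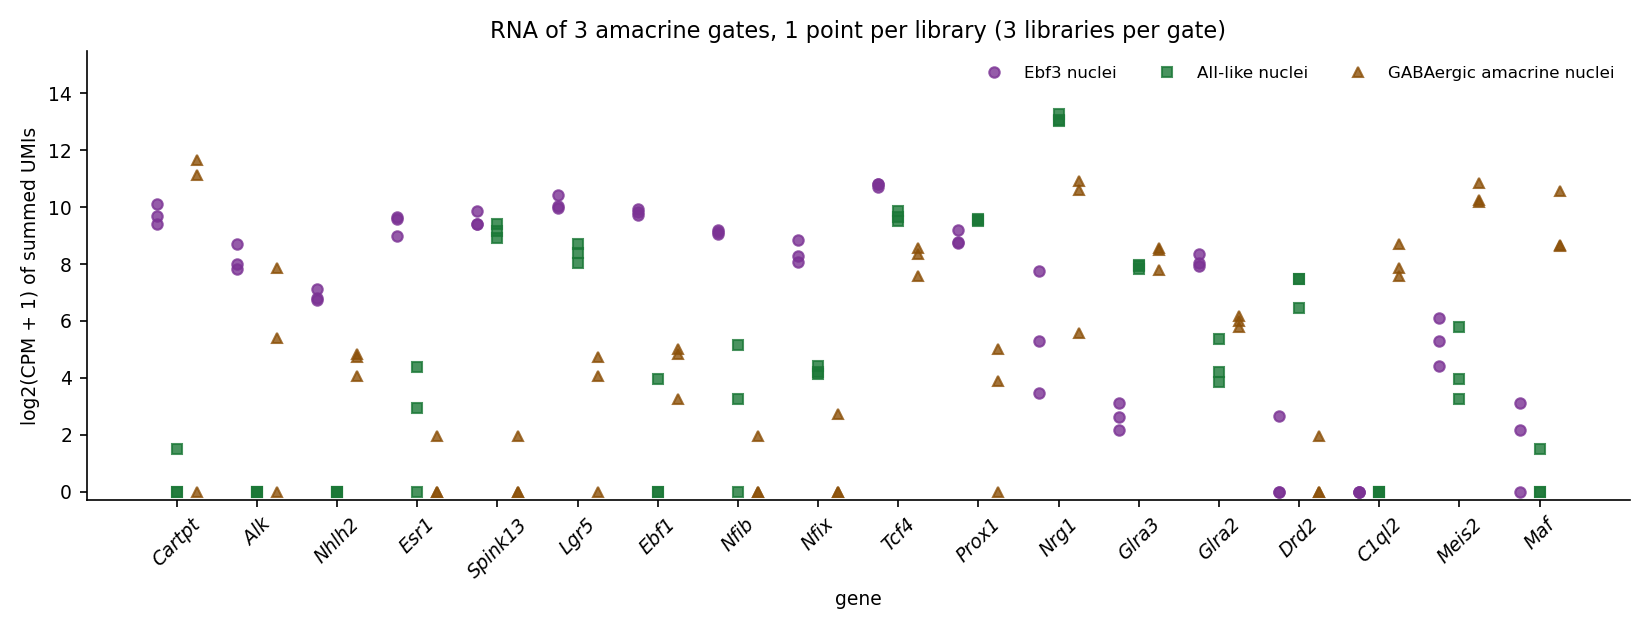
RNA level as log2(CPM + 1) (y axis) of 18 genes in Ebf3, AII-like and GABAergic amacrine nuclei, with 1 point per library; genes were chosen after the contrasts were seen. Alk lies at 0 in all 3 AII-like sums and at 412, 228 and 255 CPM in Ebf3 nuclei, while Nrg1 and Drd2 have the reverse order.

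Receptors for fast transmitters differed by subunit. Glra2, the glycine receptor alpha 2 subunit gene, held 51, 43 and 138 UMIs in Ebf3 nuclei against 2, 2 and 22 in AII-like nuclei (log2 fold change 3.05, SE 0.30), and Glra3, the alpha 3 gene, 1, 1 and 2 against 28, 37 and 124 (−5.60, SE 0.44). The subunits thus had opposite orders in every library. Slc6a5, the neuronal glycine transporter gene, was lower (−1.48, SE 0.24), so that of 7 tested glycine genes, 2 of them in the rule, 1 was higher and 2 lower. Of 17 tested glutamate receptor genes 8 were higher and 4 lower, led by the metabotropic receptor gene Grm8, at 2075, 2357 and 1887 CPM in Ebf3 nuclei against 2 to 20 UMIs in AII-like nuclei (5.49, SE 0.24), and by the kainate receptor gene Grik3 (4.33, SE 0.47). Each of these passed the edgeR threshold.

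Adhesion and channel genes had members in both directions. Of 43 tested adhesion genes 22 were higher and 14 lower, with a median log2 fold change of 0.55. Ptprt, a receptor phosphatase gene, held 248, 186 and 691 UMIs in Ebf3 nuclei against 0, 0 and 4 in AII-like nuclei (7.86, SE 0.33), and of the sidekick genes of laminar targeting Sdk2 was higher (6.51, SE 0.46) and Sdk1 lower (−1.40, SE 0.17). Of 30 voltage-gated channel genes 13 were higher and 8 lower, including Cacna2d3, a calcium channel subunit gene (6.15, SE 0.26), the potassium channel gene Kcnb2 (6.69, SE 0.28) and Kcnma1, the BK channel gene (−3.20, SE 0.18). Nrg1 had the lowest value, with 2, 5 and 124 UMIs in Ebf3 nuclei against 1139, 1287 and 4590 in AII-like nuclei (−6.47, SE 0.22). Drd2 held 0, 0 and 3 UMIs against 10, 26 and 97, 49.1-fold lower (16.4 to 241) on 3 counts. Mitochondrially encoded genes were lower for 11 of 12, and rod genes were higher for 15 of 26 and lower for 0, with a median of 0.70, and the part of RNA from rods in the other genes was not tested. Without nuclei over 1% rod-list UMIs, an alternative chosen after the data were seen, the log2 fold changes of the rod genes Pdc, Pde6g, Prph2 and Guca1a turned to −0.33, −0.40, −0.41 and −0.12. That filter used the rod list itself, so lower values of its members follow in part from the choice. Of 934 called genes of any kind that were tested under it, 5 had the other sign.

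Against GABAergic amacrine nuclei, Ebf3 nuclei differed in transmitter, transcription factor and adhesion genes. Of 4014 genes tested in the same way, 264 were higher (6.58%) and 379 lower (9.44%), and DESeq2 called 395 in both directions together. Outside the rule's Gad1 and Gad2, 11 GABA genes were tested, and 7 were lower and 1 higher. Gabbr2, a GABA-B receptor subunit gene, stood at 153, 98.9 and 110 CPM in Ebf3 nuclei against 492, 628 and 255 in GABAergic nuclei (log2 fold change −1.79, SE 0.29, edgeR adjusted p = 0.00024), and Gabrg3, a GABA-A receptor subunit gene, was the one that was higher, at 1317, 1544 and 1400 CPM against 561, 597 and 430 (1.38, SE 0.28). Esr1 held 157, 101 and 289 UMIs against 0, 0 and 1, and Spink13, a protease inhibitor gene, 184, 89 and 387 against 0, 0 and 1. Cartpt did not follow this pattern, because GABAergic nuclei held 164 UMIs at 2 weeks, 0 at 4 weeks and 1134 in the control. Alk held 3, 0 and 81 UMIs in GABAergic nuclei, and its control level was 229 CPM beside 255 in Ebf3 nuclei. Grm8 stood at 944, 1555 and 1126 CPM in GABAergic nuclei, beside 2075, 2357 and 1887 in Ebf3 nuclei.

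Transcription factor genes again had both directions, with 11 of 29 tested higher and 6 lower, and 3 of the 29 in the rule. Nfib held 105, 77 and 322 UMIs in Ebf3 nuclei against 0, 0 and 1 in GABAergic nuclei (7.72, SE 0.54). Prox1 was higher here (4.21, SE 0.42), unlike against AII-like nuclei. The homeobox gene Meis2 held 4, 5 and 39 UMIs against 85, 118 and 430 (−4.97, SE 0.38), and the leucine zipper factor gene Maf 0, 1 and 2 against 30, 97 and 139. Among the lowest genes were C1ql2, a secreted C1q-like synaptic organizer gene, at 0 UMIs in Ebf3 nuclei against 17, 12 and 147, at least 108-fold lower, and Tacr1, the substance P receptor gene, at 0 against 9, 5 and 41, at least 33.7-fold lower. Adhesion genes were lower for 31 of 63 tested and higher for 8, with a median of −1.04, and channel genes lower for 16 of 34 and higher for 7. Lgr5 and the reelin adaptor gene Dab1 were higher in Ebf3 nuclei (5.76, SE 0.46, and 4.39, SE 0.49). The AMPA receptor genes Gria1 (−4.53, SE 0.51) and Gria2 (−1.35, SE 0.30) were lower.

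Open chromatin, which the rule did not use, differed between the same nuclei. ATAC counts were summed in regions that had a peak in all 3 libraries and tested in the same way. Of 10168 regions, 148 were more open in Ebf3 than in AII-like nuclei (1.46%) and 105 less open (1.03%), and of 9852 regions 197 were more open than in GABAergic nuclei (2.0%) and 31 less open (0.315%). Without the 2-week library 39 regions were called in both directions together against AII-like nuclei and 83 against GABAergic nuclei, and without the control 89 and 83. Regions more than 1000 bp from a gene start made up 118 of the 148 more open and 68 of the 105 less open regions against AII-like nuclei, beside 2559 of all 10168, and 172 of the 197 and 25 of the 31 against GABAergic nuclei, beside 2263 of all 9852. The highest against AII-like nuclei lay at chr4:114386144-114387203 on mm10, 19521 bp from the start of Trabd2b, with 43, 22 and 43 counts against 0 in AII-like nuclei (log2 fold change 7.97, SE 1.02, edgeR adjusted p = 9.5e-09). A region inside Bcar1, chr8:111736155-111737111, had 0, 0 and 3 counts against 18, 11 and 46 (−5.12, SE 0.76). Against GABAergic nuclei the regions that led included chr13:55171404-55172281, 18586 bp from the start of Fgfr4, with 57, 29 and 49 counts.

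Promoters of these genes mostly did not pass the test in these sums. Of 179 genes named against AII-like nuclei by the RNA test or its lists, 53 had a promoter region that was tested, and 4 of their 56 regions passed (7.14%), each in the direction of the RNA, beside 0.881% of all 7609 promoter regions, while 37 of the 56 had the sign of the RNA. These were the promoters of Cartpt, Nfix, Drd2 and the calcium channel gene Cacna1h. Against GABAergic nuclei 1 of 30 regions passed (3.33%), that of Nfix, beside 0.408% of all 7589. The Cartpt promoter region, chr13:99900188-99901209, held 41, 8 and 33 ATAC counts in Ebf3 nuclei against 0, 2 and 1 in AII-like nuclei, or 77.9, 40.8 and 60.5 CPM against 0, 9.64 and 2.75 (3.97, SE 0.81, edgeR adjusted p = 0.0006). The Nfix promoter, chr8:84773727-84774575, held 25, 12 and 39 counts against 2, 2 and 3 (2.84, SE 0.68, edgeR adjusted p = 0.0048). The Drd2 promoter, chr9:49339942-49340840, held 4, 0 and 4 against 14, 10 and 20 (−3.07, SE 0.85, edgeR adjusted p = 0.023). The Alk promoter, which did not pass, held 18, 10 and 35 counts against 10, 4 and 8 (0.94, SE 0.56, edgeR adjusted p = 0.6) while its RNA was at 0 in AII-like nuclei.

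The start of Ebf3 itself was open in Ebf3 nuclei and held few counts in the others. At 2 weeks the peak over the start, chr7:137314071-137314901, held 51 counts in Ebf3 nuclei (77.7 CPM, 57.9 to 102), against 0 in AII-like and 1 in GABAergic nuclei and 3.05 CPM in all other barcodes. At 4 weeks the peak at chr7:137313893-137314783 held 15 counts (69.2 CPM, 38.7 to 114), against 1 in AII-like and 0 in GABAergic nuclei and 3.41 CPM in all other barcodes. The control peak list had no peak over the start, so its counts there are not known, and its nearest peak, chr7:137309173-137310039 at 4406 bp, held 4 counts in Ebf3 nuclei against 2 in AII-like and 0 in GABAergic nuclei (7.01 against 5.27 CPM in AII-like nuclei). The next, chr7:137321171-137321990 at 6726 bp, held 9 counts against 0 and 1. Over all peaks in Ebf3 or within 50000 bp of it, Ebf3 nuclei had 11.5 times the CPM of AII-like nuclei at 2 weeks (5.16 to 32.0), 2.86 times at 4 weeks (1.39 to 6.33) and 4.88 times in the control (2.07 to 14.0). Set against all other barcodes the ratios were 2.47 (2.06 to 2.94), 1.33 (0.897 to 1.90) and 0.866 (0.628 to 1.17), so the sum over these peaks was above other barcodes at 2 weeks and its interval held 1 at 4 weeks and in the control. In other barcodes 1 peak inside Ebf3, 85144 to 85155 bp from its start, held 4158 of 5927, 4388 of 7028 and 1897 of 2958 counts. In Ebf3 nuclei this peak held 8 of 131, 3 of 30 and 16 of 44. Ratios without it were not computed, so these ratios do not describe the other peaks. The lists covered 12826, 11991 and 7743 bp. The nuclei were chosen by Ebf3 RNA, so these values describe the chosen nuclei. The start of Ebf3 was not in the type test, because the control had no peak there. The Cartpt promoter passed against AII-like nuclei, and no value against GABAergic nuclei is given here. The proximal promoters of Ebf3 and Cartpt are shown. They are from RefSeq on GRCm38.p6, the patch level of mm10, run from 250 bases before to 50 after the gene start, and lie on the minus strand at chr7:137314396-137314695 and chr13:99900634-99900933. Capitals mark matches on either strand to CCCNNGGG, a short form of the EBF palindrome, in Ebf3 and to the E-box CANNTG in Cartpt, with 20294 of 32285 genes of the files matched to the table by symbol.
Ebf3: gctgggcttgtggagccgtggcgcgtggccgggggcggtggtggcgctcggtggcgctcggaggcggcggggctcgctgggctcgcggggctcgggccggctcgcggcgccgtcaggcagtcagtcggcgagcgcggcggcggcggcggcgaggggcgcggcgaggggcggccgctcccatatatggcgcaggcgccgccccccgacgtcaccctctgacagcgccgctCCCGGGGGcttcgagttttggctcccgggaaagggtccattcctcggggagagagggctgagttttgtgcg
Cartpt: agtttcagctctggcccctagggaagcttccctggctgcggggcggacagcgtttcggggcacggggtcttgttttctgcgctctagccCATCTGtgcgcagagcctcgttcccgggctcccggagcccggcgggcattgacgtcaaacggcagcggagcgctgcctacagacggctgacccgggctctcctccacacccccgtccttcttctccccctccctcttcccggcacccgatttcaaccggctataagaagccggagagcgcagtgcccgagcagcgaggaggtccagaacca
The match in Ebf3 lies 21 bases before the start, and that of Cartpt, CATCTG, 161 bases before it. The Cartpt promoter also has 1 match to CCCNNGGG, which is not marked, and the Ebf3 promoter has 0 matches to CANNTG. CCCNNGGG occurs in 13.7% and CANNTG in 72.3% of all 32851 promoters of the table. The longer palindrome, with a T before and an A after CCCNNGGG, was in 1.71% of the promoters of genes higher than in AII-like nuclei (11 promoters), in 1.22% of those of genes lower and in 0.954% of those of all genes tested. Against GABAergic nuclei it was in 1.23% for genes higher and in 1.28% for genes lower, beside 0.980% for all genes tested.

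**Figure D3:**
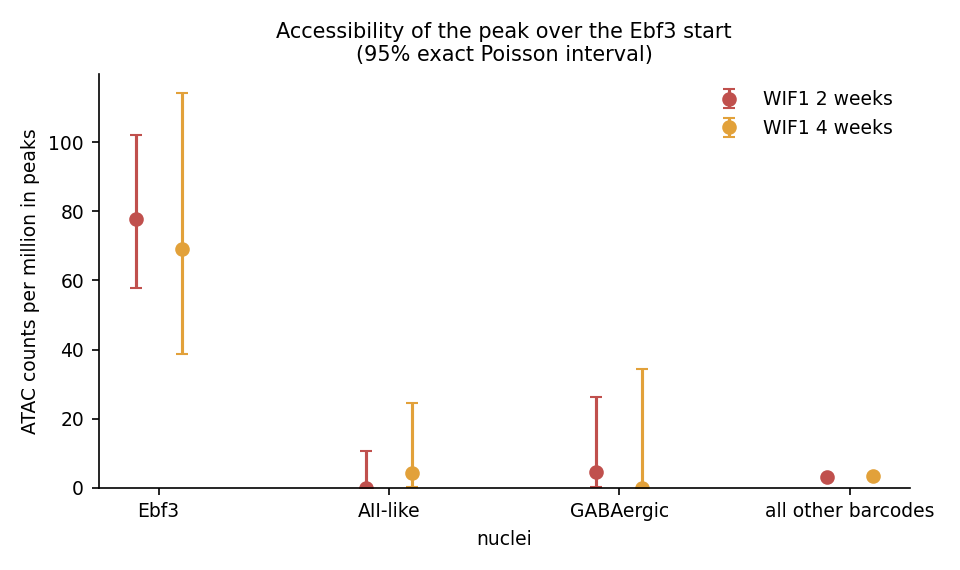
ATAC signal in CPM (y axis) in the peak over the Ebf3 gene start in Ebf3, AII-like and GABAergic amacrine nuclei and in all other barcodes of the WIF1 2-week and 4-week libraries; bars are 95% exact Poisson intervals. Ebf3 nuclei stand at 77.7 and 69.2 CPM and all other barcodes at 3.05 and 3.41.

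Within Ebf3 nuclei the libraries were then compared. At 2 weeks 47 of 3356 genes with at least 30 UMIs in the higher library were 2-fold or more higher than in the control (1.4%) and 473 were 2-fold or more lower (14.1%). At 4 weeks 20 of 2958 genes were higher (0.676%) and 532 lower (18.0%), and of 1244 genes compared between the WIF1 libraries 28 were higher at 4 than at 2 weeks (2.25%) and 62 lower (4.98%). The limit of 30 UMIs is a lower level in the control, whose sum is the largest, so a gene could enter at a lower CPM in the control than in the WIF1 libraries. With a limit of 250 CPM in its place, chosen after the data were seen, 13 of 757 genes were higher and 44 lower at 2 weeks, 13 of 784 were higher and 58 lower at 4 weeks, and 18 of 782 were higher and 16 lower at 4 than at 2 weeks. Under a scaling to the median ratio of well-counted genes, which moved log2 ratios by −0.15, −0.19 and −0.11 in these 3 comparisons, 36 genes were higher and 625 lower at 2 weeks, 9 higher and 726 lower at 4 weeks, and 17 higher and 83 lower at 4 than at 2 weeks. Without the control nucleus of 52190 UMIs 43 genes were higher and 308 lower at 2 weeks, and 14 higher and 361 lower at 4 weeks.

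Some genes that set Ebf3 nuclei apart from AII-like nuclei stayed under the 2-fold limit in both WIF1 libraries. Others, such as Lrrtm4, Robo1 and Nrg1, passed it at 2 weeks and are given below. Robo1 was higher than in AII-like nuclei but lower than in GABAergic nuclei. The genes named next were chosen after their values were seen. Tcf4 was 1.02 times the control at 2 weeks (0.903 to 1.15) and 0.943 times at 4 weeks (0.812 to 1.09). At 2 and 4 weeks Ebf1 was 1.17 and 1.08 times, Lgr5 1.36 and 1.03 times, and Esr1 1.58 and 1.52 times the control. Cartpt was 1.33 times the control at 2 weeks (1.12 to 1.56) and 0.818 times at 4 weeks (0.645 to 1.03). Lists were read over members with at least 10 UMIs in both libraries together, called measured, which a gene can reach through 1 library, so their counts hold for these members alone. Genes of the rule were left out of them. The factor list had 21 of 35 measured members higher at 2 weeks and 19 of 34 at 4 weeks, with medians of 0.12 and 0.05 on the log2 scale. Glycine genes were higher for 3 of 5 at 2 weeks and 5 of 5 at 4 weeks, with medians of 0.11 and 0.06, beside −0.04 and 0.10 over all genes. Of them, Glrb, the glycine receptor beta subunit gene, held 15 UMIs at 2 weeks and 21 at 4 weeks against 88 in the control, or 0.496 times (0.267 to 0.864) and 1.04 times. Wnt pathway genes without Tcf4 had 16 of 26 members higher at 2 weeks and 11 of 23 at 4 weeks, with medians of 0.18 and −0.01.

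B2m and H2-K1, genes of antigen presentation by MHC class I, were higher in the 2-week library. B2m, the gene of the class I light chain, held 46 UMIs in 23 nuclei at 2 weeks and 2 UMIs in 2 nuclei at 4 weeks, against 5 UMIs in 5 nuclei of the control. These are 234 CPM (171 to 312), 15.2 CPM (1.84 to 54.9) and 8.73 CPM (2.83 to 20.4), and the 2-week value was 26.8 times the control (10.7 to 86.4). Detection in nuclei thinned to 1000 UMIs was 19.7% at 2 weeks and 6.25% at 4 weeks, against 0% in the control. H2-K1, a class I heavy chain gene, held 43 UMIs at 2 weeks and 3 at 4 weeks against 19 in the control (219, 22.8 and 33.2 CPM), 6.59 times the control at 2 weeks (3.76 to 12). The 4-week values rest on 2 and 3 UMIs, too few to set them apart from the control. H2-D1, another heavy chain gene, differed less, at 163, 98.9 and 127 CPM and 1.28 times the control at 2 weeks (0.815 to 1.96). Calr and Canx, chaperone genes of class I assembly, were 1.11 and 1.19 times the control at 2 weeks. Of 8 measured members of the list 6 were higher, 3 of them 2-fold or more, with a median log2 ratio of 0.30, and at 4 weeks 1 of 6 was higher, with a median of −0.31. Over all 28 members, with no limit on low counts, the summed level was 1907 CPM at 2 weeks and 1338 at 4 weeks against 1171 in the control, and 1454, 1300.4 and 1130 CPM without B2m and H2-K1.

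B2m was also higher at 2 weeks in the other amacrine gates. It stood at 147 CPM at 2 weeks against 9.10 CPM in the control in AII-like nuclei, at 95.8 against 5.66 in GABAergic nuclei, and at 275 against 37.1 over all passing barcodes. Markers of other cells moved with it, as the summed microglia list in Ebf3 nuclei was at 336 CPM at 2 weeks and 114 at 4 weeks against 87.3 in the control (8, 4 and 7 of 12 members with a UMI), the lymphocyte list at 295 and 0 against 17.5 (6, 0 and 3 of 17), and the Müller glia list at 2202 and 2000 against 866 (19, 18 and 20 of 20). Single nuclei held much of these sums, and without the nucleus with the most UMIs of the list in each library the microglia list was at 192 and 93.5 CPM against 79.0, the lymphocyte list at 131 and 0 against 12.4, and the Müller glia list at 1324 and 796 against 708. Their part in the result was not tested. Over the alternatives, which include leaving out called doublets or the nucleus with the most B2m UMIs, the 2-week ratio of B2m ran from 23.4 to 34.9 and that of H2-K1 from 5.36 to 7.02.

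Interferon response genes had few UMIs. Over all 56 listed genes, with no limit on low counts, they summed to 155 UMIs at 2 weeks and 50 at 4 weeks against 142 in the control, or 788, 380 and 248 CPM, with a UMI of 28, 20 and 29 members. At 2 weeks 9 members were measured and 9 were higher, a count that the limit partly fixes because a gene such as Ifit1 met it through the 2-week library alone. Ifit1 held 15 UMIs in 6 nuclei at 2 weeks and 3 UMIs in 1 nucleus at 4 weeks against 0 in the control, at least 14.6-fold higher at 2 weeks against a floor of 3 counts. Ly6e, an interferon-induced surface protein gene, was 2.46 times the control (1.42 to 4.23). At 4 weeks 1 of 4 measured members was higher.

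Promoters of these genes went both ways at 2 weeks. In Ebf3 nuclei the B2m promoter held 14 ATAC counts at 2 weeks (26.6 CPM) and 2 at 4 weeks (10.2 CPM) against 4 in the control (7.33 CPM), 3.63 times the control at 2 weeks (1.14 to 15.1). This interval and those of the other promoters take each count as independent, and are too narrow if both ends of a fragment were counted. The promoter region shared by the peptide transporter gene Tap1 and the immunoproteasome gene Psmb9 held 15, 3 and 2 counts, 7.77 times the control at 2 weeks (1.81 to 70.0). That of H2-Q7, a class I gene, held 25, 2 and 5, 5.18 times the control (1.95 to 17.3), and that of Irf1, an interferon regulatory factor gene, 27, 1 and 12, 2.33 times (1.14 to 5.05). The H2-K1 promoter was 1.58 times the control, with an interval of 0.883 to 2.88. With a shared region counted once, 14 of 21 antigen presentation promoters were higher at 2 weeks, with a median log2 ratio of 0.16, beside 5670 of 11297 promoter regions and a median of 0.00 over all. At 4 weeks 6 of 13 were higher. Of 15 interferon response promoters 11 were higher at 2 weeks, with a median of 0.13, and that of Parp12 went the other way, with 0 counts at 2 weeks and 6 at 4 weeks against 20 in the control. The B2m promoter is printed because B2m led the antigen presentation genes at 2 weeks. It is from RefSeq on GRCm38.p6, plus strand, chr2:122147437-122147736, and capitals mark a pair of GAAA motifs with 2 bases between them, the core of an interferon element, searched on both strands.
B2m: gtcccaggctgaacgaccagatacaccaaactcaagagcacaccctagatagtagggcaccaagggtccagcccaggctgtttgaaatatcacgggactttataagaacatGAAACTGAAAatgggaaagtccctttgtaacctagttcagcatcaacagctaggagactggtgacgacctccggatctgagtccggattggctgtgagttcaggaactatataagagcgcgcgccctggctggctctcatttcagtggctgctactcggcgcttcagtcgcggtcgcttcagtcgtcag
The match, GAAACTGAAA, lies 139 bases before the start. The pair was in 3.44% of all promoters of the table and in 5 of 24 promoters of the antigen presentation list (20.8%).

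**Figure D4:**
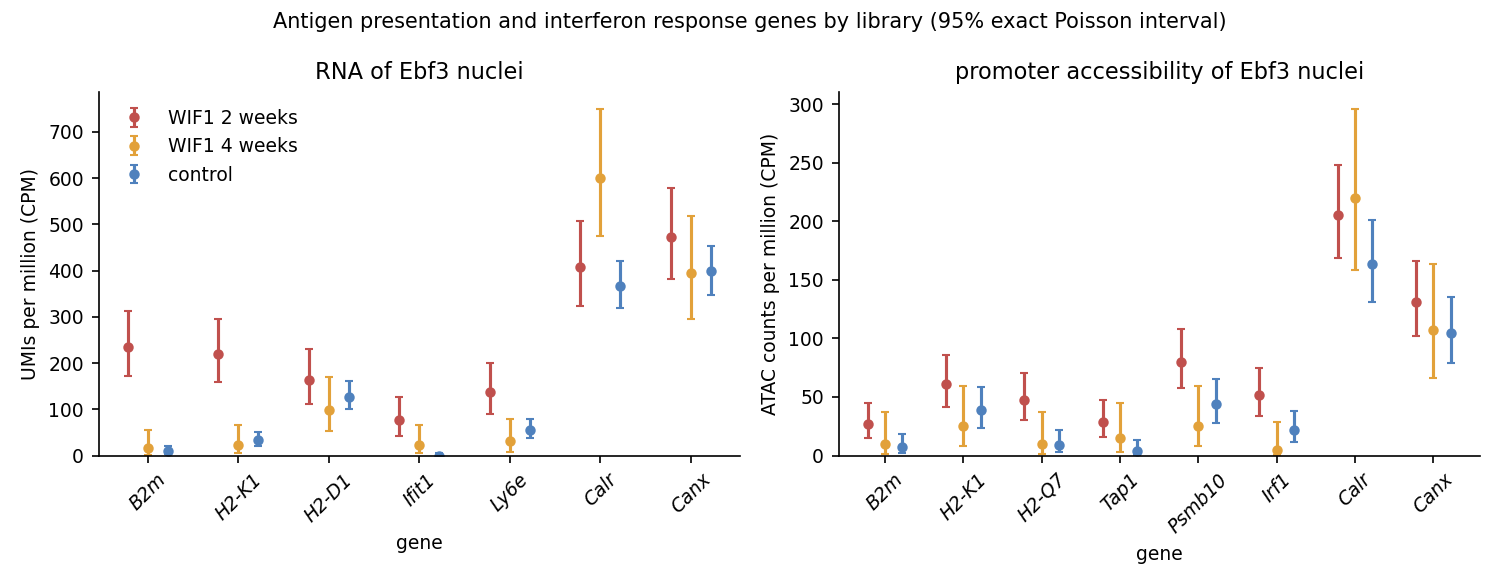
RNA of B2m, H2-K1, H2-D1, Ifit1, Ly6e, Calr and Canx and promoter ATAC of B2m, H2-K1, H2-Q7, Tap1, Psmb10, Irf1, Calr and Canx in Ebf3 nuclei, both in CPM (y axes), in the WIF1 2-week, WIF1 4-week and control libraries; bars are 95% exact Poisson intervals and each group is 1 library. B2m RNA is at 234 CPM at 2 weeks, 15.2 at 4 weeks and 8.73 in the control.

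Other genes that stood highest or lowest at 2 weeks were of mixed kinds. Besides B2m and H2-K1, the 10 highest included Cpt1c, a brain carnitine palmitoyltransferase gene, with 43 and 9 UMIs in the WIF1 libraries against 34 in the control (3.68 times at 2 weeks, 2.29 to 5.96), the cytokine gene Il27 (3.34 times, 1.93 to 5.82), Zfp692 (3.19 times) and C530008M17Rik (3.28 times). Igkc, an immunoglobulin gene, and the glial genes Clu, Glul and Apoe were also among them, and for these 1 nucleus held 46.3% to 66.7% of the 2-week UMIs. Without called doublets the ratios of Clu and Glul turned to 0.401, with counts under 3 set to a floor of 3. The equal values can rest on that floor. Of the 10 lowest, Nefl, Nefm, Uchl1, Sncg and Nrn1 had 82.3% to 92.4% of their control UMIs in the nucleus of 52190 UMIs, so they describe that nucleus. Ubl5, a ubiquitin-like gene, held 3 and 10 UMIs in the WIF1 libraries against 69 in the control (0.127 times at 2 weeks, 0.0255 to 0.386, and 0.132 times without that nucleus). The mitophagy gene Bnip3 held 3 and 8 against 69 in the control, and Gm42418, which overlaps ribosomal RNA sequence, 75 and 324 against 1964. Nrg1, the leading AII-like gene, was lower as well, with 2 and 5 UMIs in the WIF1 libraries against 124 in the control (0.047 times at 2 weeks, 0.00563 to 0.173), and over all passing barcodes it stood at 335 and 227 CPM against 549. The 79 AII-like nuclei of the control held 4590 Nrg1 UMIs. How much of the 124 UMIs single Ebf3 nuclei held is not given here. More adhesion and glutamate receptor genes were lower than higher past 2-fold at 2 weeks, with 16 lower and 4 higher of 75 measured adhesion genes and 4 lower and 2 higher of 25 measured glutamate receptor genes, beside 823 lower and 708 higher of all 9740 measured genes. Without the nucleus of 52190 UMIs 11 of 72 adhesion genes were lower and 5 higher, and 3 of 24 glutamate receptor genes were lower and 1 higher. Among the lower ones were the contactin gene Cntn6 at 0.216 times the control (0.0567 to 0.585), Robo2, an axon guidance receptor gene, at 0.153 times (0.0407 to 0.409), and the metabotropic glutamate receptor gene Grm7 at 0.173 times (0.0549 to 0.421). In the control 1 nucleus held 33.3%, 35.5% and 51.2% of their UMIs, and without the nucleus of 52190 UMIs the ratios were 0.225, 0.216 and 0.323. The higher ones included the AMPA receptor gene Gria2 at 2.05 times (1.75 to 2.38), Lrrtm4, a postsynaptic adhesion gene, at 2.51 times (2.09 to 3.01), and the axon guidance receptor gene Robo1 at 2.33 times (1.82 to 2.98).

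At 4 weeks the highest genes rested on few nuclei or were modest in size. The cone genes Opn1mw and Arr3 were 14.0 and 4.57 times the control, with 49.2% and 63.1% of UMIs in 1 nucleus, and without called doublets 1.27 and 0.536 times. Cdon, a cell surface receptor gene, held 34 UMIs at 4 weeks against 53 in the control (2.79 times, 1.76 to 4.38), and Slc4a7, a bicarbonate transporter gene, 32 against 53 (2.63 times, 1.64 to 4.15). Among the lowest were Calb2, the calretinin gene, with 6 UMIs at 4 weeks against 254 in the control (0.103 times, and 0.279 times without the nucleus of 52190 UMIs), and the contactin gene Cntn5 with 5 against 148 (0.147 times, 0.0471 to 0.351). Nr1d2, a clock repressor gene, held 4 UMIs against 75 in the control, 0.232 times the control. Between the WIF1 libraries, Sema5a at 4 weeks was at 2.92 times its 2-week level (1.71 to 5.13). H2-K1 was 0.104 times its 2-week level (0.0207 to 0.326) and B2m 0.065 times (0.00765 to 0.249).

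Metabolic and stress lists stood apart from the other genes at 2 weeks, and some did at 4 weeks too. Mitochondrially encoded genes were lower for 12 of 12 members at 2 weeks and at 4 weeks, with median log2 ratios of −1.82 and −1.14, and made up 0.729% and 1.10% of the UMIs of Ebf3 nuclei against 2.67% in the control. The share was also lower in AII-like nuclei, at 2.13% and 2.25% against 4.61%, and over all passing barcodes, at 1.90% and 1.89% against 3.49%. Heat shock and chaperone genes were lower for 15 of 19 and 14 of 19, with medians of −0.66 and −0.46, among them Hspa9 at 6 and 19 UMIs in the WIF1 libraries against 69 in the control and Hsp90aa1 at 95 and 90 against 557. Cholesterol synthesis genes were lower for 17 of 19 at 2 weeks, with a median of −0.67, including Hmgcs1 at 5 UMIs against 59 in the control and Fdps at 5 against 45, and for 10 of 19 at 4 weeks, with a median of −0.10. Circadian clock genes were higher for 16 of 18 at 2 weeks, with a median of 0.45, and for 8 of 17 at 4 weeks, and the times of day of collection are not given in the sources used here. Rod genes were lower for 31 of 35 at 2 weeks, with a median of −0.68, and for 18 of 35 at 4 weeks. Adhesion genes had medians of −0.13 and 0.02 and channel genes of −0.09 and −0.10. Over all 9740 and 9424 measured genes the medians were −0.04 and 0.10.

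**Figure D5:**
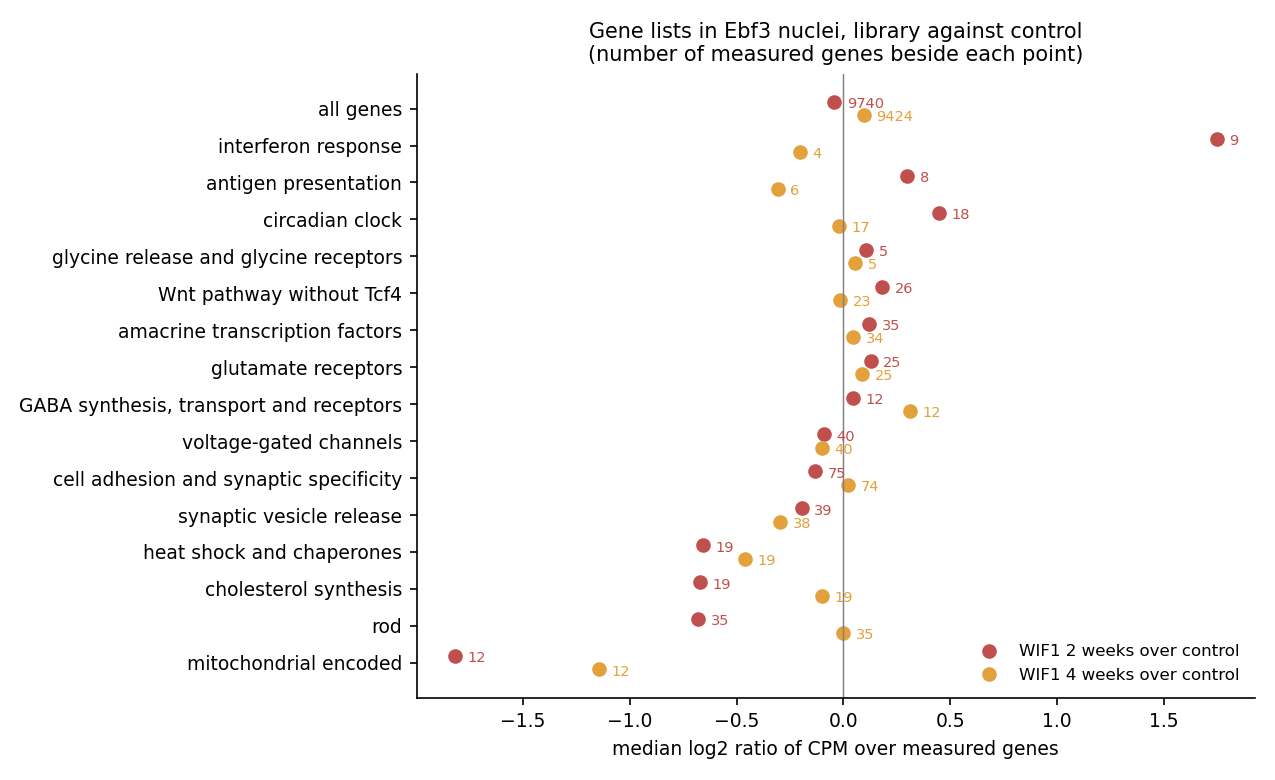
Median log2 ratio (x axis) of the measured members of 16 gene lists in Ebf3 nuclei, for the WIF1 2-week and the WIF1 4-week library over the control. The mitochondrial list lies at −1.82 and −1.14, and the interferon list at 1.75 at 2 weeks from 9 members and −0.20 at 4 weeks from 4.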

How the data were processed

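Retinal nuclei were read for RNA and open chromatin by 10x Multiome in 3 libraries, 1 per group. The authors deposited raw count matrices for each library, which list UMIs of each gene and ATAC counts of each peak by barcode, per the file headers. The submitters' processing notes name Cell Ranger ARC 2.0.1, Seurat 5.0.1, Signac 1.12.0 and mm10. Peaks were called per library, so ATAC was tested in the 44580 merged regions (of 117835) with a peak in all 3 libraries.

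The members, gene lists and tests were chosen with earlier results of these data known. Ebf3, AII-like and GABAergic nuclei were gated by UMIs, and their counts summed per library. Sums of the types were tested with edgeR 4.0.16 (R 4.3.3; TMM scaling, filter on low counts, library as block, Benjamini-Hochberg adjustment). Libraries within a type had CPM with exact Poisson intervals, ratios with conditional binomial intervals, and a floor of 3 counts. Doublets were called with scanpy 1.11.5 at 0.8% per 1000 barcodes, and 9, 4 and 15 Ebf3 nuclei at 2 weeks, at 4 weeks and in the control were called and kept. The tests were tried on simulated data: of genes changed 4-fold, 70 of 82 were recovered against AII-like and 64 of 82 against GABAergic nuclei, and of those changed 2-fold 5 of 82 and 15 of 90. For regions, 59 of 79 and 53 of 79 changed 4-fold were recovered, and 4 of 91 and 1 of 81 changed 2-fold. Unchanged features that were called numbered 7 and 4 genes, and 2 and 0 regions. The simulated counts had the same dispersion for every feature, which real counts need not have.

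Named genes were, between libraries, the 10 highest and 10 lowest ratios of genes whose higher library had 30 UMIs and 50 CPM or more. Mitochondrial, Y-linked, rod-list and rule genes, Xist and Tsix were left out, and other X-linked genes were kept. Between types, named genes were the 10 largest changes each way past an adjusted p of 0.05 with the same direction in all 3 libraries. For regions, 5 were named each way. Members of lists past the thresholds, and Wif1, Tcf4 and Tcf7l2, could be named too. Genes of the type figure, the 5 shared genes, the markers in the check of the label and list members under 2-fold were chosen after their values were seen. Spatial data and some genes are not reported here.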

Additional observations from a re-analysis of the deposited data

How the results depend on the processing

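The share of Ebf3 nuclei depended on its denominator and on depth. Its 2-week ratio to control, 0.498 as reported, was 0.957 with a floor of 1000 UMIs per barcode, 3.37 with barcodes thinned to 1000 UMIs and 1.30 as a share of the 3 amacrine gates, and the 4-week ratio, 0.241, was 0.479 and 1.03 under the last 2 of these. The other settings, a limit of 1 or 3 Ebf3 UMIs, no called doublets and no nuclei over 1% rod-list UMIs, gave 0.455 to 0.547 at 2 weeks. Counts of genes at 2-fold or more were 520 at 2 weeks, 552 at 4 weeks and 90 between the WIF1 libraries. They became 1167, 836 and 916 with at least 10 UMIs in the higher library and 57, 71 and 34 with at least 250 CPM, and without the control nucleus over 20000 UMIs 351 and 375 against the control. The 250 CPM limit and the settings without that nucleus or without nuclei over 1% rod-list UMIs were chosen after seeing the data.

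Some single genes turned direction. Without called doublets, the 2-week ratios of Clu and Glul were both 0.401, and the 4-week ratios of Glul, Arr3 and Apoe were 0.634, 0.536 and 0.692. All ratios of this kind set counts under 3 to a floor of 3, on which the equal values of Clu and Glul can rest. Without the nucleus with the most UMIs of the gene, the 4-week ratio of Apoe was 0.397 and that of Epb41l2 0.998. Without the control nucleus over 20000 UMIs, which also held most of their UMIs, the 2-week ratio of Nrn1 was 1.59 and the 4-week ratio of Nefm 1.08. Against AII-like nuclei, log2 fold changes without nuclei over 1% rod-list UMIs were −0.33 for Pdc, −0.40 for Pde6g, −0.41 for Prph2 and −0.12 for Guca1a, and that of Arr3 ran from −0.34 to 0.87 over the fits that left out 1 library, the lowest without the 4-week library. The rod-list filter used the list that holds Pdc, Pde6g, Prph2 and Guca1a, so their lower values follow in part from that choice. The causes were not tested.

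The main design keeps each library as a pair of sums, so the library is the replicate block. Without the replicate block the calls of both directions together were 758 and 595 genes against AII-like and GABAergic nuclei, and 242 and 303 regions, beside 1096, 643, 253 and 228 with it. DESeq2 1.42.0 called 501 and 395 genes, and 92 regions against AII-like nuclei. With no filter on low counts, 965 genes and 373 regions were called against GABAergic nuclei. Without nuclei over 1% rod-list UMIs 99 regions were called against AII-like nuclei. Leaving out 1 library in turn gave 735 to 1220 genes and 39 to 356 regions against AII-like nuclei, and 461 to 670 genes and 83 to 244 regions against GABAergic nuclei. The lowest region counts against AII-like nuclei came without the 2-week library (39) and without the control (89), and both gave 83 against GABAergic nuclei. Depth limits the 4-week values most, since 32 nuclei and 131496 UMIs lie behind them.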

Other observations

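Further gene lists had the following values in Ebf3 nuclei, beside 13.7% of all tested genes higher and 12.8% lower against AII-like nuclei, 9.44% lower against GABAergic nuclei, and 4719 of 9740 measured genes higher at 2 weeks and 5283 of 9424 at 4 weeks over the control. Synaptic vesicle release genes were higher for 6 and lower for 3 of 30 tested against AII-like nuclei, including Rph3a, the rabphilin gene, with a log2 fold change of 5.76 (edgeR), and they were higher for 14 of 39 measured members at 2 weeks and for 15 of 38 at 4 weeks over the control. Circadian genes were higher for 3 and lower for 0 of 10 tested against AII-like nuclei, namely Cry2, Hlf and Rora. Cholesterol synthesis genes were lower for 6 of 8 tested against GABAergic nuclei, with a median log2 fold change of −1.15. GABA receptor and transporter genes outside the rule were higher for 6 of 12 measured members at 2 weeks and for 9 of 12 at 4 weeks over the control, and glutamate receptor genes for 13 of 25 and 16 of 25. Immediate early genes were higher for 7 of 11 at 2 weeks, with a median of 0.03.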
